A study of Homo sapiens with 6 samples.

Results

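Ephrins are ligands held at the cell surface, and Eph receptors are the receptor tyrosine kinases that bind them. Of 10 listed genes of the family (EFNA1, EFNA4, EFNA5, EFNB1, EFNB2, EPHA2, EPHA4, EPHB2, EPHB3 and EPHB4), 9 had a probe on the arrays by the platform annotation, with 11 probes of 48784 in all. EPHB2 had no annotated probe. Of these 9 genes, 6 were among the 9078 genes tested (EFNA1, EFNA4, EFNB1, EFNB2, EPHA2 and EPHB4), and the probes of EFNA5, EPHA4 and EPHB3 were well above background (detection p under 0.01) on 0 arrays. RNA came from SW1353, an established human chondrosarcoma line used as a model of chondrocytes. All cells went about 20 h without serum. For a further 6 h, 3 samples received 0.5 ng/ml of interleukin-1 alpha (IL-1) and 3 control samples did not. The sample titles are of 2 kinds, called title series here: Allstars titles cover replicates 1 and 2 of both groups and Sample titles cover replicate 3 of both, and the labels do not explain them. The labels do not say whether the 6 samples were separate cultures. The p-values therefore describe the variation among these 6 samples, some or all of which may be technical.

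A-class ephrins are tethered to the membrane by a lipid anchor, and B-class ephrins cross the membrane. EphA receptors bind mostly A-class ephrins and EphB receptors mostly B-class ephrins. Contact between cells that carry ligand and receptor starts forward signalling in the receptor-bearing cell and reverse signalling in the ephrin-bearing cell, and much of this acts on adhesion, repulsion and the cytoskeleton. In blood vessels, ephrin-B2 marks arteries and its receptor EPHB4 marks veins. Ephrin-A1 was first isolated as a product of endothelial cells exposed to tumour necrosis factor, and in the RefSeq gene table EFNA1 has the synonym TNFAIP4. In skeletal tissue, signals between ephrin-B2 and EPHB4 are known from the exchange between osteoclasts and osteoblasts.

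Promoter sequences are shown for the 4 genes on which the results below turn: EFNA1, the gene that rose, and EPHB4, EFNB1 and EFNB2, which were lower after IL-1 in the fit that accounts for title series. The sequences are RefSeq windows on GRCh38.p14 of 300 bases, 250 before and 50 after the annotated start, written 5′ to 3′ on the gene's strand, and all 10 listed genes had an entry. Capitals mark GC boxes (GGGCGG on either strand) and the TATA sequence (TATAAA on either strand). The window of EFNA1 lies at chr1:155127626-155127925 (plus strand), that of EPHB4 at chr7:100827474-100827773 (minus strand), that of EFNB1 at chrX:68828771-68829070 (plus strand) and that of EFNB2 at chr13:106535613-106535912 (minus strand).
EFNA1: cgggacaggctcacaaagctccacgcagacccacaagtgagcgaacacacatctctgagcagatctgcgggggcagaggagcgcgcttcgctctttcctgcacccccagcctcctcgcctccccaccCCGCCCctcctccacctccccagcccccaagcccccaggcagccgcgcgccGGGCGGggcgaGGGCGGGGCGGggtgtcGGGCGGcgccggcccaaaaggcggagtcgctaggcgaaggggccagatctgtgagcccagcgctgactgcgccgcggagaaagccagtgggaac
EPHB4: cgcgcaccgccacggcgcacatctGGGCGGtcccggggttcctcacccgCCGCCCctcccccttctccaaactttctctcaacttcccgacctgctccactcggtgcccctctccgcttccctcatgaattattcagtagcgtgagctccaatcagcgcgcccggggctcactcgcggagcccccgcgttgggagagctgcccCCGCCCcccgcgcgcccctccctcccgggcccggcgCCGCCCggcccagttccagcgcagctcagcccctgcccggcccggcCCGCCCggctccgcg
EFNB1: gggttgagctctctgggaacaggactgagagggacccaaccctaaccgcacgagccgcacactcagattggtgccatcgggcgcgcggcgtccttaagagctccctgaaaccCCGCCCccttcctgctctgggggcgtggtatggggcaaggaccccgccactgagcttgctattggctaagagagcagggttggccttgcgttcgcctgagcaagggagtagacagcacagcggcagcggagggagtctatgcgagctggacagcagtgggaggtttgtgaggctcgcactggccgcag
EFNB2: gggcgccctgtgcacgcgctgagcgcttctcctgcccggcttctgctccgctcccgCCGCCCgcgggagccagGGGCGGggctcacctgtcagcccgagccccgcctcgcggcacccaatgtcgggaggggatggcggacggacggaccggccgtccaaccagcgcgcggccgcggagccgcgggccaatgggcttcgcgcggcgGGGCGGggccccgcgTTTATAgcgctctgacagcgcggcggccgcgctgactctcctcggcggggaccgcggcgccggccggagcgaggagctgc
These windows held 5 GC boxes for EFNA1, 5 for EPHB4, 1 for EFNB1 and 3 for EFNB2. GC content was 71.7% for EFNA1, 74.3% for EPHB4, 63.7% for EFNB1 and 78.7% for EFNB2, and the median over all 35116 RefSeq promoter windows of this length was 58.7%. EFNB2 had 1 match to TATAAA, on the opposite strand, written TTTATA above. A GC box was present in 45.0% of all windows and the TATA sequence in 11.5%. Matches to the kB motif and to the AP-1 motif TGANTCA, searched on both strands, numbered 0 in the windows of all 10 listed genes, and 11.3% and 7.71% of all windows held one. These letters being absent from a window says nothing about the factors that bind there or elsewhere.

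The 6 arrays had median deposited signals between 60.3 and 95.3, with both Sample arrays the brightest, and between 11954 and 13357 probes well above background. NFKBIA, the gene of the NF-kB inhibitor IkB-alpha, differed by 2.98 ± 0.20 (log2 fold change ± SE), and the cytokine gene IL6 was at least 122-fold higher with IL-1. Of 7 chondrocyte markers, SOX9 was well above background on all arrays. The other 6, among them the defining cartilage matrix genes COL2A1 and ACAN, were well above background on 0. Of 5 mesenchymal markers 4 were well above background on all arrays (VIM, COL1A1, COL1A2 and PDGFRB). Among 6 endothelial markers, PECAM1, CDH5, KDR and CLDN5 were well above background on 0 arrays, while VWF had mean log2 signals of 7.15 in control and 6.53 in IL-1 samples and TEK had 6.69 and 6.70. None of the 4 leukocyte markers with a probe was well above background on any array, and of 5 epithelial markers 1 (EPCAM) was, on 2 arrays. Between the title series, 4309 genes (47.5%) differed (limma, adjusted p under 0.05 after Benjamini-Hochberg adjustment), 4 of the 6 listed genes tested among them.

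The comparison asks how transcripts of this family differ after 6 h of IL-1. EFNA1, which encodes ephrin-A1, a ligand of EphA receptors, rose 1.93-fold. EPHB4, a receptor of ephrin-B2, was 2.01-fold lower and EFNB1, a ligand of EphB receptors, 1.47-fold lower after IL-1. Neither passed the test without a block, and both passed once title series was accounted for. Without a block, 1 of the 6 tested genes was called higher and 0 lower (limma adjusted p under 0.05), where 6.08% of all genes were called higher and 2.94% lower. With title series as a block, 1 was called higher and 3 lower, where 13% of all genes were called higher and 22.2% lower. The median log2 fold change of the 6 was -0.42, and that of all genes tested was -0.11, with 65.4% of all genes below 0. Control and IL-1 arrays are equal in number within both title series, and the block therefore leaves a fold change as it is and alters its error.

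**Figure D1:**
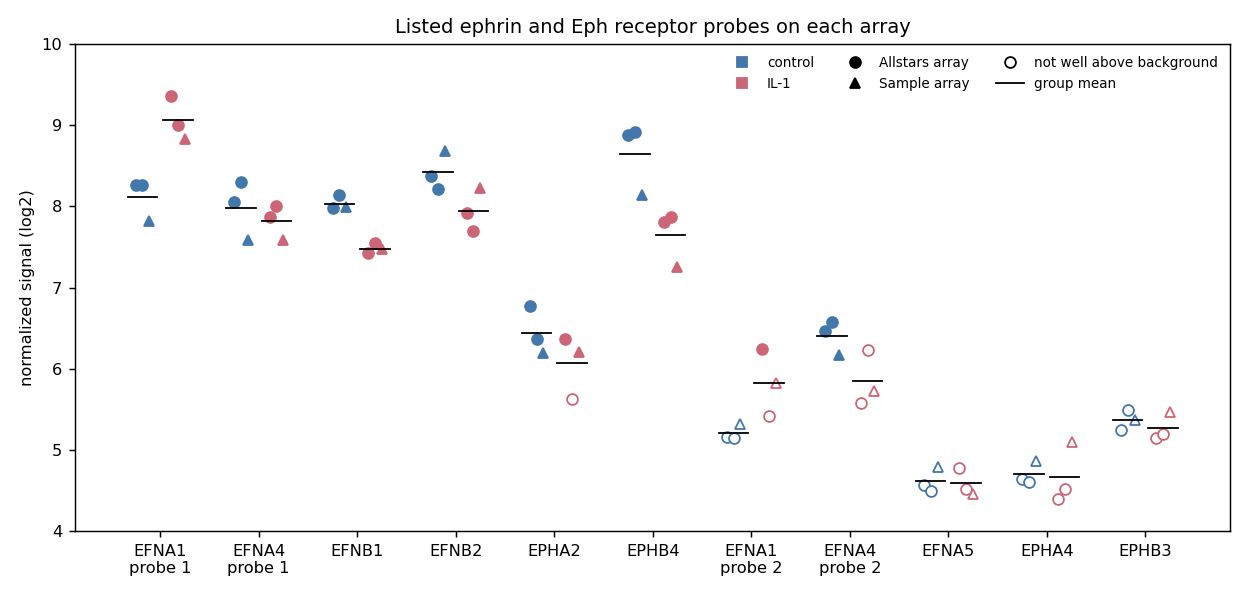
Normalized log2 signal (vertical axis) of all 11 probes of the listed genes on each of the 6 arrays, control in blue and IL-1 in red, circles for Allstars and triangles for Sample arrays, open where the probe was not well above background, with lines at the group means. The IL-1 arrays of the EFNA1 probe that was tested lie between 8.83 and 9.36, above all its control arrays, and those of EFNB1 and EPHB4 lie below all their control arrays.

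EFNA1 had log2 signals of 8.26, 8.26 and 7.82 in control samples and 9.36, 9.01 and 8.83 in IL-1 samples, in replicate order. Every IL-1 array lay above every control array, and the Sample array was the lowest of each group. Its log2 fold change was 0.95 ± 0.20 (SE, n = 3 per group; 95% interval 0.49 to 1.41; limma adjusted p = 0.0241). The deposited signals before normalization were 269, 196 and 508 in control and 429, 265 and 921 in IL-1 samples, so the groups overlapped on that scale, through the brighter Sample control and, within the Allstars arrays, through IL-1 replicate 2 just below control replicate 1. Within the Allstars arrays the log2 difference was 0.92 (limma adjusted p = 0.000254), and between the pair of Sample arrays it was 1.01. Under the block the limma adjusted p was 1.18e-05. Without a block the call was lost when control replicate 1, control replicate 2, IL-1 replicate 1 or IL-1 replicate 2 was left out (limma adjusted p = 0.0708, 0.0654, 0.103 and 0.0850), and held without control or IL-1 replicate 3 (0.0421 and 0.0162). Leaving out 1 array makes a group smaller and also unbalances the title series between the groups. The cause of the lost calls was not tested. With the block EFNA1 was called in all 6 such fits. A further EFNA1 probe was dim, with 5.16, 5.14 and 5.33 in control and 6.24, 5.42 and 5.83 in IL-1 samples. It was well above background on 1 array, IL-1 replicate 1, and was not tested. EFNA1 is next to EFNA3 and close to EFNA4 on chromosome 1, where these 3 ephrin genes follow one another without another protein-coding gene between them in the RefSeq gene table.

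EFNA4, the other A-class ligand tested, had log2 signals of 8.05, 8.30 and 7.59 in control and 7.88, 8.00 and 7.59 in IL-1 samples. The groups overlapped, with the Sample array lowest in both. The log2 fold change was -0.16 ± 0.22 (95% interval -0.67 to 0.35; limma adjusted p = 0.751, and 0.335 under the block). Its other probe read 6.47, 6.57 and 6.17 in control and 5.59, 6.23 and 5.73 in IL-1 samples. This probe was detected (p under 0.01) in 3 control samples and in 0 IL-1 samples, and it was kept through the control samples alone. Its groups overlapped, with IL-1 replicate 2 above control replicate 3, and in a fit over all 13017 kept probes it did not pass (limma adjusted p = 0.296, and 0.111 under the block). RefSeq annotates a read-through gene, EFNA4-EFNA3, that starts where EFNA4 does, and whether either probe reads it was not tested. EFNA3 itself was well above background on 0 arrays.

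EPHA2, an EphA receptor that binds ephrin-A1, was the sole EphA receptor tested. Its log2 signals were 6.77, 6.37 and 6.20 in control and 6.37, 5.63 and 6.21 in IL-1 samples. The groups overlapped, and IL-1 replicate 2, the lowest, was the 1 array on which the probe was not well above background. The log2 fold change was -0.38 ± 0.28 (95% interval -1.02 to 0.27; limma adjusted p = 0.508, and 0.284 under the block). Within the Allstars arrays EPHA2 differed by -0.57 and between the Sample arrays by 0.01, and the difference between the title series did not pass (limma interaction adjusted p = 0.963).

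**Figure D2:**
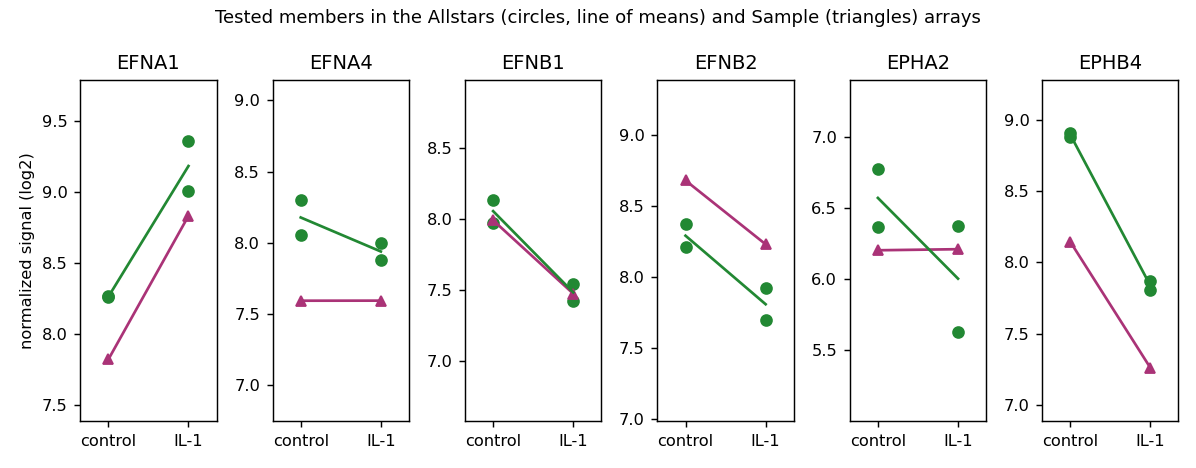
Normalized log2 signal (vertical axes, each spanning the same number of log2 units around its gene's own range) of the 6 tested genes in control and IL-1 samples, with Allstars arrays as circles joined at their means and the Sample pair as triangles. For EFNA1, EFNB1, EFNB2 and EPHB4 both lines run the same way, and for EFNA4 and EPHA2 the Sample line is close to level.

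EPHB4 had log2 signals of 8.89, 8.91 and 8.15 in control and 7.80, 7.87 and 7.26 in IL-1 samples. Every IL-1 array lay below every control array, and the Sample array was the lowest of each group, by 0.67 on average (limma adjusted p for title series = 0.000326). The log2 fold change was -1.004 ± 0.264 without a block (95% interval -1.62 to -0.39; limma adjusted p = 0.0581). Under the block the SE was 0.11 and the limma adjusted p 4.82e-06. The difference was -1.06 within the Allstars arrays (limma adjusted p = 3.64e-05) and -0.89 between the Sample arrays. The deposited signals were 386, 282 and 613 in control and 173, 144 and 345 in IL-1 samples, and within each title series the IL-1 signals were below the control signals. Leaving out 1 array without a block, EPHB4 was called in 1 of 6 fits, that without control replicate 3 (limma adjusted p = 0.0122), and with the block it was called in all 6.

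EFNB1, which encodes ephrin-B1, varied little within each group. Its log2 signals were 7.98, 8.14 and 7.99 in control and 7.42, 7.54 and 7.48 in IL-1 samples. The groups did not overlap, and the title series differed by -0.04 (limma adjusted p = 0.830). The log2 fold change was -0.55 ± 0.14 (95% interval -0.89 to -0.22), with limma adjusted p = 0.0559 without a block and 0.00249 with it. The Allstars arrays gave -0.57 (limma adjusted p = 0.0125) and the Sample arrays -0.52.

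EFNB2, which encodes ephrin-B2, had log2 signals of 8.37, 8.21 and 8.68 in control and 7.92, 7.70 and 8.23 in IL-1 samples. The IL-1 Sample array was just above the lowest control array, so the groups overlapped, but within each title series the IL-1 arrays were lower. Unlike for EFNA1, EFNA4 and EPHB4, the Sample arrays were the higher ones, by 0.41 (limma adjusted p = 0.0119). The log2 fold change was -0.47 ± 0.20 (95% interval -0.93 to -0.01; limma adjusted p = 0.215), with an SE of 0.11 and limma adjusted p = 0.00471 under the block. The Allstars arrays gave -0.48 (limma adjusted p = 0.0248) and the Sample arrays -0.45. With the block, EFNB1 and EFNB2 were each called in all 6 leave-one-out fits (largest limma adjusted p = 0.0212 and 0.0287), and without it in 0 of 6.

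In these bulk samples, fewer cells with a transcript and less of it per cell cannot be told apart. Of the 6 listed genes tested, the IL-1 arrays lay wholly below the control arrays for 2 (EFNB1 and EPHB4) and wholly above them for 1 (EFNA1), where 17.1% of all genes lay below and 11% above. No gene of the family passed the test of a difference in response between the title series. The Sample series holds 1 array per group, so this test had little power to show a difference. The smallest limma interaction adjusted p in the family was 0.963, and over all genes 0 passed, with 552 at an unadjusted p under 0.05.

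EFNA5, a ligand of EphA receptors, EPHA4, a receptor that binds ephrins of both classes, and EPHB3, an EphB receptor, gave no signal well above background. Mean log2 signals were 4.62 in control and 4.59 in IL-1 samples for EFNA5, 4.71 and 4.67 for EPHA4, and 5.37 and 5.27 for EPHB3. Their lowest detection p-values on any array were 0.157, 0.0461 and 0.0184. On these arrays no difference in these 3 genes could be measured.

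Outside the list, 12 more genes of the family had a probe and 3 of them were tested, all of the B class. EPHB6, a receptor without kinase activity, had log2 signals of 7.59, 7.39 and 6.68 in control and 6.58, 6.76 and 6.10 in IL-1 samples. The groups overlapped through the control Sample array. Its log2 fold change was -0.74 ± 0.29 (limma adjusted p = 0.191 without a block, 0.00371 with it), and with the block it was called in all 6 leave-one-out fits. EFNB3, the remaining B-class ligand, differed by -0.28 ± 0.20 (limma adjusted p = 0.486 without a block, 0.0310 with it). EFNB3's call with the block held in 1 of those 6 fits, that without IL-1 replicate 2 (limma adjusted p = 0.0327). It was lost without control replicates 1, 2 or 3 (0.0695, 0.0599 and 0.164) and without IL-1 replicates 1 or 3 (0.0771 and 0.159). EPHB1, an EphB receptor, differed by 0.07 ± 0.20 (limma adjusted p = 0.902, and 0.665 with the block). Over the whole family, 5 of the 6 B-class genes tested were called lower and 0 higher with the block, and 1 of the 3 A-class genes was called higher and 0 lower, where the same fit called 22.2% of all genes lower and 13% higher. EFNB3, with its call lost in 5 of 6 leave-one-out fits, is 1 of these 5. Median log2 fold changes were -0.51 for the B class and -0.16 for the A class, and no test compared the classes. An EFNA2 probe was well above background on 1 array, control replicate 3, with log2 signals of 5.64, 5.94 and 6.42 in control and 5.43, 4.89 and 5.67 in IL-1 samples. EFNA3, EPHA1, EPHA3, EPHA5, EPHA6, EPHA7, EPHA8 and EPHA10 were well above background on 0 arrays.

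**Figure D3:**
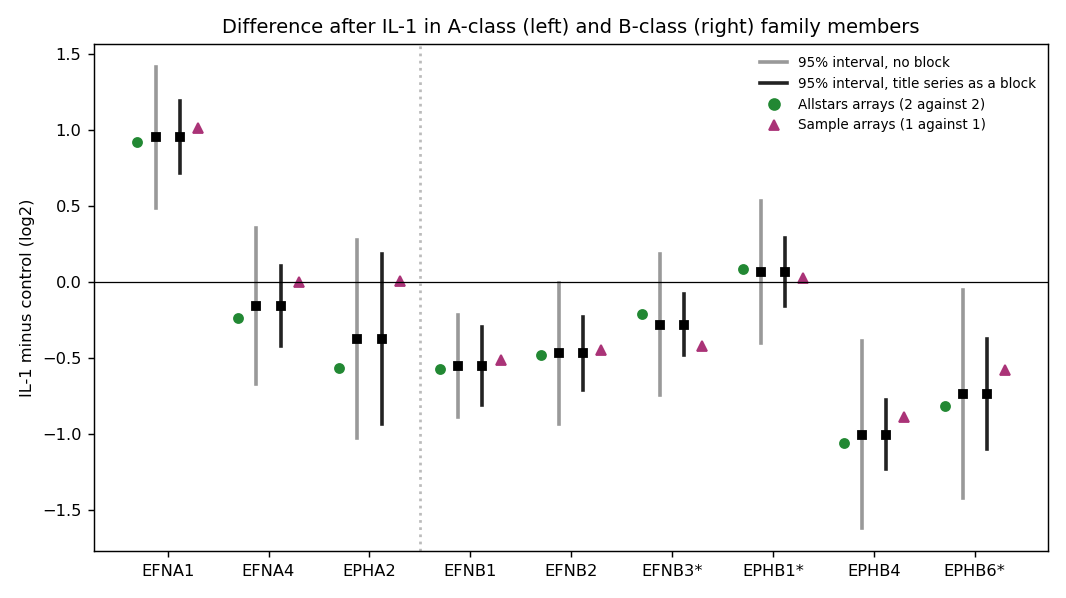
Log2 difference, IL-1 minus control (vertical axis), of the 9 family genes tested, A class left and B class right of the dotted line, asterisks marking genes outside the list. Squares are log2 fold changes with 95% intervals without (grey) and with (black) title series as a block, circles are Allstars differences and triangles are Sample differences. The interval of EFNA1 lies above 0 in both fits, and those of EFNB1, EFNB2, EPHB4 and EPHB6 lie below 0. That of EFNB3 lies below 0 only with the block. The intervals are per gene and are not adjusted for the number of genes tested.

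Genes of the pathway were read from 3 lists with 51 genes in all, of which 39 were tested. The lists were chosen with earlier results of these data known, so the shares below cannot show a response of the pathway. Without a block, 3 were called higher (7.69%) and 2 lower (5.13%), beside 6.08% and 2.94% of all genes. With title series as a block, 11 were called higher (28.2%) and 7 lower (17.9%), beside 13% and 22.2% of all genes. The median log2 fold change over the 3 lists was 0.04.

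In reverse signalling, NCK2 was the 1 gene of 7 tested called without a block (14.3% lower, beside 2.94% of all genes). The list median was 0.05. NCK2, an adaptor that links phosphorylated B-class ephrins to the cytoskeleton, had log2 signals of 10.38, 10.31 and 10.74 in control and 9.47, 9.34 and 9.75 in IL-1 samples. The groups did not overlap, and it fell by 0.96 ± 0.17 on the log2 scale (limma adjusted p = 0.0127). The call was lost without control replicate 1, IL-1 replicate 1 or IL-1 replicate 2 (0.0506, 0.0659 and 0.0646). Where the block called 13% of all genes higher and 22.2% lower, 2 genes of this list were called higher and 2 lower (28.6% each). STAT3, a transcription factor and the gene with the largest difference above 0 among these, was singled out after its value was seen and differed by 0.48 (limma adjusted p = 0.215 without a block, 0.000492 with it).

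Among 22 tested adaptors and kinases of forward signalling, 2 rose (9.09%) and 1 fell (4.55%) without a block, with a median of -0.02. The same fit called 6.08% of all genes higher and 2.94% lower. FYN, a Src family kinase that Eph receptors engage, had log2 signals of 8.61, 8.67 and 8.27 in control and 9.68, 9.89 and 9.28 in IL-1 samples. It rose by 1.10 ± 0.20 (limma adjusted p = 0.0123), and the call was lost without IL-1 replicate 1 or 2 (0.0646 and 0.0595). In a fit of the 11408 kept probes annotated to 1 gene, its 3 other probes differed by 1.08, 0.58 and 1.24 (limma adjusted p = 0.0448, 0.300 and 0.0895). All were higher after IL-1 and 1 of them was called. SHB, an adaptor with an SH2 domain, rose by 0.76 ± 0.19 (limma adjusted p = 0.0496), a call that held in 1 of 6 leave-one-out fits, that without control replicate 3 (0.0200). SHB was also not called without a block with equal medians (limma adjusted p = 0.0564) or under the 3 other detection filters (0.0544, 0.0601 and 0.115). Nor was it called in the fit of 11408 probes (0.0534) or with the authors' deposited log2 values, where it differed by 0.49 (0.297). GRB10, an adaptor that binds EphB1 and other receptor kinases, fell by 0.84 ± 0.17 (limma adjusted p = 0.0218), a call that held without control or IL-1 replicate 3 (0.0249 and 0.0272) and was lost in the other 4 fits, without a detection filter (0.0717) and with the authors' deposited log2 values (0.0735). Its other kept probe differed by -0.999 in the fit of 11408 probes (limma adjusted p = 0.0572). Under the block, 6 genes of this list were called higher (27.3%) and 4 lower (18.2%), beside 13% and 22.2% of all genes. LYN, another Src family kinase, named after its value was seen, differed by 0.95 (limma adjusted p = 0.118 without a block, 1.09e-07 with it).

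The list for proteolysis of ephrins and Eph receptors had 10 genes tested, 1 called higher (10%) and 0 lower without a block. Its median was 0.19. The same fit called 6.08% of all genes higher and 2.94% lower. ADAM17, a membrane metalloproteinase, had log2 signals of 8.37, 8.35 and 8.14 in control and 9.14, 9.25 and 8.80 in IL-1 samples. It rose by 0.77 ± 0.17 (limma adjusted p = 0.0275), and among the leave-one-out fits the call held in that without IL-1 replicate 3 (0.0107) and was lost in the other 5, with adjusted p up to 0.127. Its other kept probe rose by 0.99 in the fit of 11408 probes (limma adjusted p = 0.0310). With the block 3 genes of this list were called higher (30%) and 1 lower (10%), beside 13% and 22.2% of all genes. NCK2, FYN, SHB, GRB10 and ADAM17 were each called in all 6 fits that combined the block with leaving out an array.

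**Figure D4:**
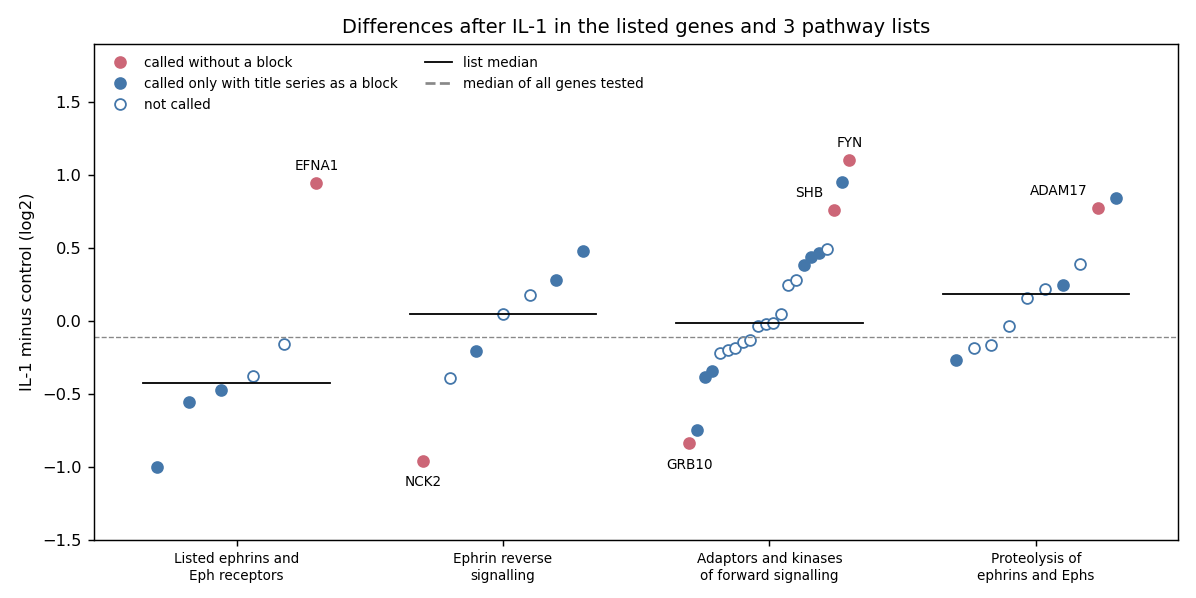
Log2 difference, IL-1 minus control (vertical axis), of each tested gene in the list of ephrins and Eph receptors and in the 3 pathway lists, red where called without a block, filled blue where called only with title series as a block and open where not called. List medians (lines) lie between -0.42 for the ephrins and Eph receptors and 0.19 for the proteolysis list. The dashed line is the median of all genes tested, -0.11.

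The 3 genes with a profile over the 6 arrays nearest to that of EFNA1, by the root mean square difference of log2 values after each gene's mean was subtracted, were HSPA1B at 0.0809, TLNRD1 at 0.108 and AKAP7 at 0.113. HSPA1B, a heat shock protein gene, has a near-identical copy, HSPA1A, that its probe may also read.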

How the data were processed

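Total RNA of the 6 samples was measured on Illumina bead arrays. The authors deposited, per the file headers, 1 intensity and 1 detection p-value per array for 48784 probes, and the headers name no normalization. The authors also deposited log2 values of these arrays, with lumi as the tool in the submitters' processing notes. Their medians were 5.86 to 5.87 on the Allstars and 6.49 to 6.50 on the Sample arrays, and their scaling is not given in the sources used here, so they served as an alternative.

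Signals were background-corrected with normexp, fitted through the detection p-values with an offset of 16, and quantile normalized (neqc, limma 3.58.1 in R 4.3.3). The 13017 probes that reached a detection p under 0.01 on 3 or more arrays were kept, and the probe with the highest mean stood for its gene (9078 genes). Platform annotation gave 28085 probes 1 gene and 13 several, and 20686 were not listed. Levels were compared within a probe, never between probes.

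The two-sided test was lmFit followed by eBayes (mean-variance trend), with p-values adjusted by Benjamini-Hochberg over all genes and a threshold of 0.05. The design held treatment and no block, since the series names none. Fits with title series as a block, and of the interaction of treatment and title series, stand beside it. Where a probe was dim throughout a group, the fold is a lower bound: dim values below the lowest signal of any probe well above background on that array were set to it. The fit was run on simulated data with independent errors, to check that it returned planted differences on average. That run is no support for the calls above. Alternatives changed the block, normalization, detection filter, probe choice, eBayes trend and array weights, or left out 1 array at a time. The number of arrays limits the precision.

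Every listed gene and every other family gene with a probe is named, as values if detected on at least 1 array. From the pathway lists the called genes are named, and of the called listed genes the one with the largest change has its 3 nearest profiles. A further gene list is not reported here. The listed genes and all gene lists were chosen with earlier results of these data known. Deviations from group means correlated at 0.531, 0.551 and 0.818 between same-numbered arrays. They correlated at 0.478 and 0.487 between the other Allstars pairs and at -0.62 to -0.67 across title series. Deviations cancel within a group, so the sign of every correlation with a Sample array follows from those among the Allstars arrays. The labels number replicates 1 and 2, and replicate 3 is the Sample array, so the pairing used here is that of the title series.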

Additional observations from a re-analysis of the deposited data

How the results depend on the processing

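Over the 27 alternatives, EFNA1 was called higher in 22, EPHB4 lower in 14, EFNB1 in 13, EFNB2 in 12 and EFNA4 in 0, and EPHA2 in 0 of its 26. All 6 kept their direction in each of them, though EFNA4 ranged from -0.355 to -0.000189 and so reached almost no difference. The alternatives draw on the same 6 arrays and a block recurs among them, so these counts are not of independent tests. Title series as a block gave 1 listed gene called higher and 3 lower, 1181 and 2015 of all genes, and 11 and 7 pathway genes. A replicate block gave 1 and 3 listed genes, 1214 and 2109 genes, and 11 and 7 pathway genes. The Allstars arrays alone gave 1 and 3, 1048 and 1534, and 6 and 4, and array weights 1 and 3, 1154 and 1787, and 10 and 3. The authors' deposited log2 values gave 1 and 1 (EPHB4), 432 and 170, and 2 and 1. Without a detection filter 517 and 170 genes and 2 and 1 pathway genes were called, and without a trend 1 listed gene (EFNB1) was called lower. Leaving out each array in turn gave 0 to 1 listed genes higher and 0 to 1 lower, 350 to 612 and 67 to 353 of all genes, and 0 to 4 and 0 to 2 pathway genes. With title series as a block as well, chosen after seeing the data, it gave 1 and 3 listed genes in each fit, 1009 to 1078 and 1333 to 1739 of all genes, and 6 to 10 and 3 to 6 pathway genes. The block with the authors' deposited log2 values gave 1 and 3, 1109 and 2128, and 10 and 7, and the block with equal medians 1 and 3, 1358 and 1526, and 11 and 5, both also chosen after seeing the data.

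The alternative of equal array medians without the quantile step did not name the probes behind the median. Taken over the probes detected on all 6 arrays it gave 1 and 0 listed genes, 543 and 185 genes, and 2 and 2 pathway genes. Taken over all probes, which was computed first, it gave 0 and 0, 165 and 6, and 0 and 0, and moved the median log2 fold change of all genes from -0.11 to -0.22. The probes detected on all arrays were preferred after those values were seen, since most probes are not well above background, and the cause of the lost calls was not tested. EPHB1's log2 fold change of 0.07, called in 0 fits, turned to -0.0659 with all-probe medians, ranged from -0.0764 to 0.211 over the leave-one-out fits without a block, and was -0.0193 and -0.0198 with the block when control replicate 1 or IL-1 replicate 2 was left out. Genes not well above background, such as EFNA5, EPHA4 and EPHB3, cannot be compared at this signal.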
